A study of Mus musculus with 6 samples.

Results

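Mature oligodendrocytes, the cells that wrap axons in myelin, were described from the cells to which the authors gave the class Oligodendrocyte in the deposited table. There were 3046 such cells among 12823 cells of 17 classes, and 3000 of them remained after 46 predicted doublets had been left out. The cells came from hippocampi of 6 mice of the strain APP/PS1, which carries amyloid transgenes, so every mouse of both groups is an amyloid model and no mouse without the transgenes was compared. The study measured RNA of single whole cells by Drop-Seq, in which cells are captured with barcoded beads in droplets and transcripts are counted from their 3′ ends by unique molecular identifiers (UMIs). The groups were 3 mice given an antisense oligonucleotide (ASO) and 3 mice given phosphate buffered saline (PBS), all 10 weeks of age. The title of the study names IDOL, the product of Mylip and a ligase for ubiquitin, as what was reduced, and the labels state neither the sequence of the ASO nor the sex of the mice. Because the controls were given saline and not another oligonucleotide, an effect of any oligonucleotide and an effect of this one cannot be told apart.

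Oligodendrocytes arise from proliferating precursors, which first become committed cells and then mature cells that hold large amounts of myelin protein and lipid. Myelin insulates axons, speeds conduction and supplies axons with metabolites. In mouse models with amyloid plaques, a state of oligodendrocytes with high Serpina3n and C4b has been described, and glucocorticoids are known to induce Sgk1 in these cells.

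After removal of doublets, 742, 519 and 404 oligodendrocytes remained in ASO mice and 455, 451 and 429 in PBS mice. They held 835497, 565388 and 446705 UMIs in ASO mice and 525982, 482520 and 478688 UMIs in PBS mice. Median depth per cell was alike, at 1060, 1019 and 1030 UMIs in ASO mice and 1080, 990 and 1042 UMIs in PBS mice. Mitochondrially encoded genes gave a median of 3.89%, 4.29% and 6.84% of UMIs per cell in ASO mice and 4.02%, 4.31% and 6.56% in PBS mice, so that replicate 3 was highest in each group. Of all cell barcodes, 8 occurred in more than 1 library, and 0 of those belonged to oligodendrocytes. RNA of Ttr, a choroid plexus transcript that reaches other cells as free RNA, was 3524, 2038 and 6158 CPM (counts per 1000000 UMIs of the mouse's oligodendrocytes) in ASO mice and 3152, 5243 and 56.4 CPM in PBS mice, so PBS replicate 3 stood apart in it.

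The class label was checked with 5 markers: Mbp, Mog, Mobp and Cldn11, which encode myelin proteins, and Ermn, which encodes a cytoskeletal protein of myelinating cells. At least 4 of the 5 were seen in 92.1% of oligodendrocytes and in 0.114% of all other cells. All 5 were seen in 1841 cells, 4 in 923, 3 in 184, 2 in 37, 1 in 11 and 0 in 4. At least 1 of the 5 was seen in 45.7% of the other cells, so a single marker UMI did not set oligodendrocytes apart. Mean levels were 6492 CPM for Mbp in oligodendrocytes and 801.6 CPM in precursors, the highest among the other classes with at least 20 cells in every mouse. Mog had 1441 CPM in oligodendrocytes and 17.5 CPM in precursors. These levels describe a class that was itself made from the RNA of these cells, and no test is given.

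**Figure D1:**
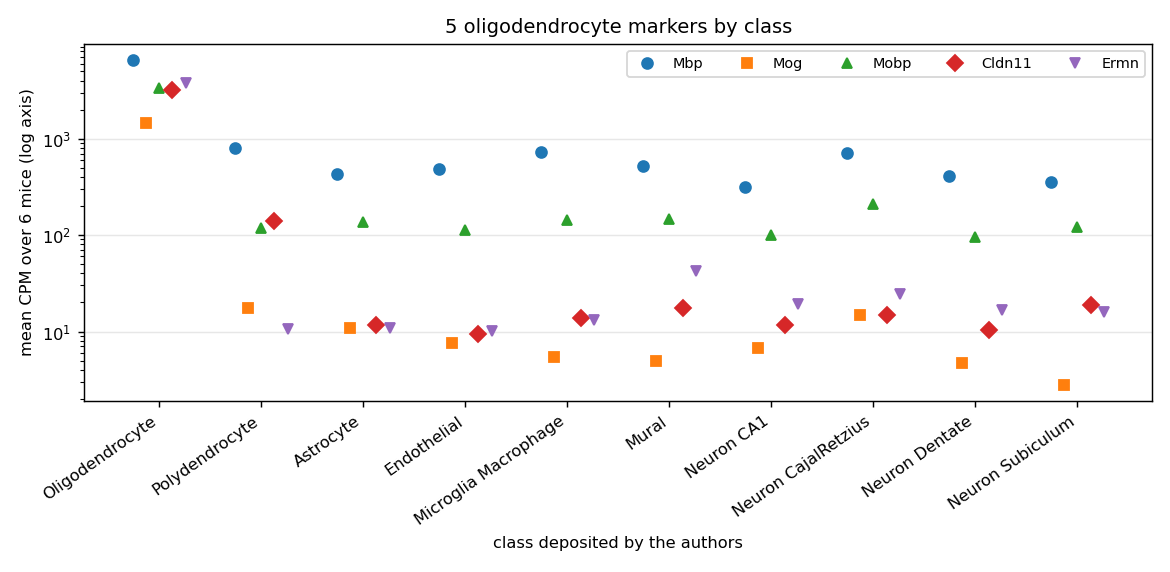
Mean level over 6 mice (CPM, log axis) of the 5 markers in the 10 classes that had at least 20 cells in every mouse. All 5 markers are highest in oligodendrocytes, and Mbp lies at 6492 CPM there and at no more than 801.6 CPM in the other 9 classes shown.

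The plot of marker levels by class shows that RNA of Mbp and Mobp was seen in every class, while Mog, Cldn11 and Ermn stood further below their level in oligodendrocytes. The genes with the highest ratio of their level in oligodendrocytes to that in any other such class were Hapln2, which encodes a matrix link protein at nodes of Ranvier (188-fold), and Opalin, which encodes a myelin membrane protein (95.1-fold). Ermn followed at 87.7-fold and Mog at 82.4-fold. Nkx6-2, a transcription factor of myelinating cells, stood at 52.4-fold. Aspa, which encodes the enzyme that cleaves N-acetylaspartate, stood at 32.7-fold. Olig1 and Sox10, transcription factors of the whole lineage, were lower than in another class, at ratios of 0.392 and 0.710. Fth1, Malat1, Mbp and Ptgds were among the genes with the most UMIs, of which Fth1 encodes the heavy chain of ferritin.

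Within the class, genes that other work in mouse brain assigns to subtypes of mature oligodendrocytes were not spread evenly over cells. After each cell was thinned to 500 UMIs, Ptgds, a prostaglandin synthase, was seen in 70.0%, 82.5% and 77.7% of cells of ASO mice and in 72.7%, 75.6% and 78.3% of cells of PBS mice. S100b, which encodes a calcium-binding protein, was seen in 14.2%, 6.55% and 8.66% of cells of ASO mice and in 6.81%, 7.98% and 7.92% of cells of PBS mice. In endothelial cells, which should lack both, the thinned shares were 2.93% for Ptgds and 0.995% for S100b. Median depths before thinning were 1013 and 1040 UMIs in endothelial cells of ASO and PBS mice. ASO replicate 1 was highest in S100b and the groups overlapped for both genes.

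S100b and Ptgds were seen together in 111 cells, where independence within each mouse would give 205.1, and each of the 6 mice had fewer than that. Klk6, a secreted protease, and Ptgds were seen together in 15 cells, where 35.9 would be expected, again with fewer in each mouse. S100b and Sepp1, a secreted selenoprotein, were seen together in 157 cells, where 82.7 would be expected, and Klk6 and Sepp1 in 31 cells, where 13.7 would be. Those last 2 pairs exceeded independence in each of the 6 mice. Cells with Klk6 or S100b thus held Ptgds less often and Sepp1 more often than independence would give, in each ASO and each PBS mouse. These counts are a description across cells that share a library, and Sepp1 was also seen in 49.9% of thinned endothelial cells.

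The question of how many oligodendrocytes each hippocampus yielded came next. Oligodendrocytes made up 24.7 ± 1.61% of all cells in ASO mice and 22.6 ± 2.33% in PBS mice (SD, n = 3 each). The difference of 2.12 percentage points did not exceed the spread between mice (exact two-sided permutation test, p = 0.3, and 0.1 is the lowest value it can reach with 3 mice per group). Of oligodendrocytes and their precursors together, 78.4 ± 6.52% were oligodendrocytes in ASO mice and 73.7 ± 5.98% in PBS mice (SD, n = 3 each; exact permutation test, p = 0.5). A share of dissociated cells is not a number of cells in the tissue.

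The amount of myelin RNA per cell was then compared, as the share of a cell's UMIs that came from 26 genes of myelin proteins. The median cell had 10.5%, 10.8% and 9.07% in ASO mice and 11.1%, 12.03% and 10.2% in PBS mice, and the groups overlapped. The mean of the medians was 10.1 ± 0.944% in ASO mice and 11.1 ± 0.921% in PBS mice (SD, n = 3 each; exact permutation test, p = 0.4). The low end of the distribution differed more between mice. The tenth percentile lay at 7.01%, 8.58% and 5.56% in ASO mice and at 8.81%, 9.41% and 7.89% in PBS mice, so ASO replicates 1 and 3 were the lowest of the 6.

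**Figure D2:**
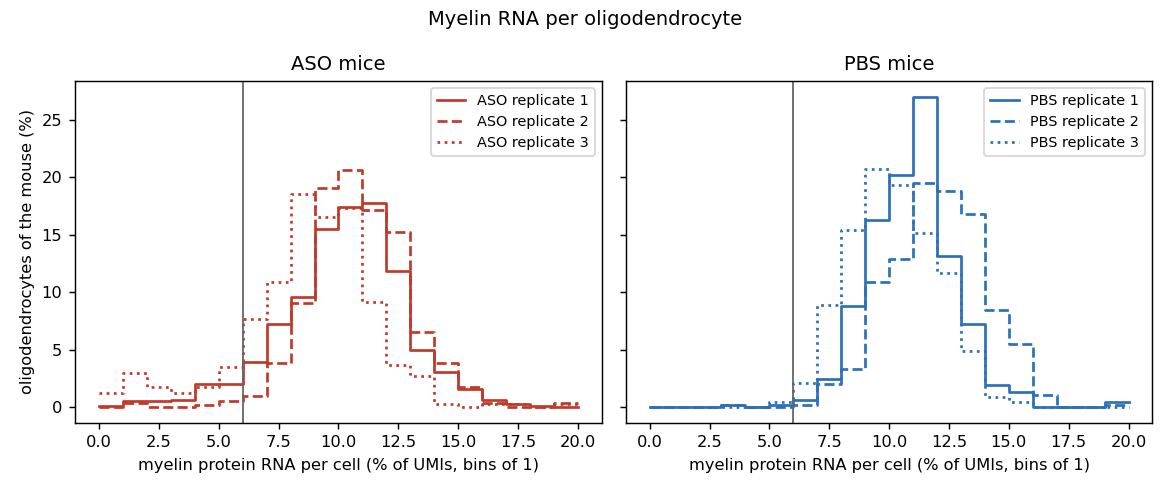
Share of each mouse's oligodendrocytes (%) by the percentage of the cell's UMIs from 26 myelin protein genes, in bins of 1, with ASO mice on the left and PBS mice on the right. The last bin also holds higher values, and the vertical line marks 6%. ASO replicates 1 and 3 have a tail below the line that holds 5.93% and 12.4% of their cells, while ASO replicate 2 has 1.16% there and the PBS mice have 0.222% to 0.466%.

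A limit of 6%, chosen after these distributions had been seen, separated this tail. Below it lay 44, 6 and 50 cells of ASO mice and 2, 1 and 2 cells of PBS mice. These were 5.93% (exact Clopper-Pearson 95% interval 4.34% to 7.88%), 1.16% (0.425% to 2.499%) and 12.4% (9.33% to 16.0%) of the oligodendrocytes of the ASO mice. In PBS mice the shares were 0.440% (0.0533% to 1.58%), 0.222% (0.00561% to 1.23%) and 0.466% (0.0565% to 1.67%). The intervals cover counting error only. Below 3% lay 35 cells of ASO mice and 0 of PBS mice, and between 5% and 7%, on both sides of the limit, lay 97 and 16 cells. The shares were much the same in cells thinned to 500 UMIs, at 5.93%, 0.963% and 13.4% in ASO mice and 0.440%, 0.222% and 0.466% in PBS mice. Because the limit was set on these values, the difference of 6.11 percentage points between the group means is given with no test. It was 3.17 points without ASO replicate 3 and 8.78 points without ASO replicate 2, and so rests on 2 of the 3 ASO mice.

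In ASO mice the cells under 6% had a median of 1204, 1000 and 1141 UMIs, against 1056, 1019 and 1028 UMIs in the other oligodendrocytes, so they were deeper in replicates 1 and 3 and slightly shallower in replicate 2. Their median doublet scores were 0.0239, 0.0218 and 0.0234 below the limit and 0.0383, 0.0388 and 0.0316 above it. Mitochondrially encoded genes gave 4.55%, 4.69% and 7.79% of UMIs below the limit and 3.82%, 4.28% and 6.72% above it. At least 2 of the 5 markers were seen in 86 of the 100 cells, and 4 held none. Markers of astrocytes summed to 438, 4440 and 910 CPM below the limit and 607, 853 and 734 CPM above it. They were thus higher below the limit in replicates 2 and 3, most of all in the 6 cells of replicate 2, and lower in replicate 1, and 8 of the 10 markers were higher below the limit over all cells. Summed precursor genes were 171, 1269 and 532 CPM below the limit and 152, 157 and 172 CPM above it. Of the 6 precursor genes with at least 20 UMIs, 5 were higher below the limit, as were 5208 of 9073 genes of that abundance in all. Among the 5 was Serpine2, at 102 CPM below and 27.2 CPM above. Vcan, too rare to be among the 6, was at 68.3 CPM below and 4.62 CPM above. Below the limit, replicates 1, 2 and 3 held 1, 1 and 10 UMIs of Serpine2 and 0, 1 and 7 of Vcan. Both pooled values thus rest mostly on replicate 3. In replicate 1 Serpine2 was at 19.03 CPM below and 14.05 CPM above, and Vcan at 0 and 2.55 CPM. The defining precursor genes Pdgfra and Cspg4 had 0 UMIs below the limit, and at 2.89 CPM each above it they were too rare for that 0 to set the cells apart. The part of these RNAs in the result was not tested.

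The low cells had less structural myelin RNA, by which they were chosen, while lineage regulators went both ways. Mog was at 571, 1427 and 258 CPM in the low cells, against 1408, 1717 and 1243 CPM in the other cells of ASO mice and 1468, 1457 and 1538 CPM in PBS mice. Mog is among the 26 genes that set the limit, so it had to be low. Of 14 transcription factors of the lineage with at least 20 UMIs, 6 were higher in the low cells and 8 lower. Olig2, which specifies the lineage, was at 266, 159 and 223 CPM in the low cells, against 158, 64.4 and 85.0 CPM in the other cells of ASO mice and 114, 118 and 136 CPM in PBS mice. Sox2, a factor of neural progenitors, was at 228, 0 and 154 CPM in the low cells, against 20.4, 14.3 and 23.2 CPM in the other cells of ASO mice. Sox8 had 6 UMIs in the low cells, at 51.2 CPM over all of them, against 109 CPM in the other cells. Sox10 was at 228, 159 and 206 CPM in the low cells, against 310, 179 and 196 CPM in the other cells of ASO mice and 232, 240 and 221 CPM in PBS mice. Olig1 was at 932, 476 and 635 CPM in the low cells, against 1003, 792 and 680 CPM in the other cells of ASO mice and 835, 783 and 786 CPM in PBS mice. Anln, an actin-binding protein of myelin, was at 247, 0 and 223 CPM in the low cells, where the 0 stands for 6 cells, and at 723, 614 and 883 CPM in the other cells of ASO mice. Fa2h, the enzyme that hydroxylates fatty acids of myelin lipids, was at 209, 317 and 155 CPM in the low cells, against 590, 391.7 and 451 CPM in the other cells of ASO mice.

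Several genes of the p53 response and the integrated stress response were more abundant in the low cells. The 24 genes of that list summed to 2911, 3013 and 3572 CPM in the low cells, against 1363, 1561 and 1511 CPM in the other cells of ASO mice. PBS mice had 1420, 1546 and 1469 CPM, so all 3 values of the low cells lay above all the others. Of the 18 members with at least 20 UMIs, 15 were higher in the low cells, as were 5208 of 9073 genes of that abundance in all. Cdkn1a, the p53 target that arrests the cell cycle, was at 685, 476 and 824 CPM in the low cells, against 29.4, 42.9 and 25.7 CPM in the other cells of ASO mice. In PBS mice Cdkn1a was at 13.3, 47.7 and 10.5 CPM. Ccng1, another p53 target, was at 190, 159 and 275 CPM in the low cells, against 30.7, 39.4 and 56.6 CPM in the other cells of ASO mice and 38.0, 41.5 and 54.3 CPM in PBS mice.

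Gdf15, a secreted stress cytokine of the same list, had 36 UMIs in the oligodendrocytes of ASO mice, of which 32 lay in the 100 low cells, and 0 in those of PBS mice, where 3 UMIs would have made 5.70, 6.22 and 6.27 CPM. Per ASO mouse its UMIs were 13, 3 and 20. Ddit3, a transcription factor of the stress response, was at 171, 0 and 206 CPM in the low cells, against 48.5, 60.8 and 97.8 CPM in the other cells of ASO mice and 53.2, 60.1 and 50.1 CPM in PBS mice. Psat1, a serine synthesis enzyme of the list, was lower, at 362, 476 and 258 CPM in the low cells, against 496, 594 and 515 CPM in the other cells of ASO mice. Bpifc and Cd44 were picked after their values had been seen. Bpifc had 18 UMIs in 10 of the low cells and 0 in the other oligodendrocytes of ASO mice. Cd44, an adhesion receptor, was at 190, 159 and 120 CPM in the low cells and at 17.9, 7.16 and 12.9 CPM in the other cells of ASO mice. For ASO replicate 2, 1 UMI in the 6 low cells makes 159 CPM, so its values for single genes carry little weight.

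**Figure D3:**
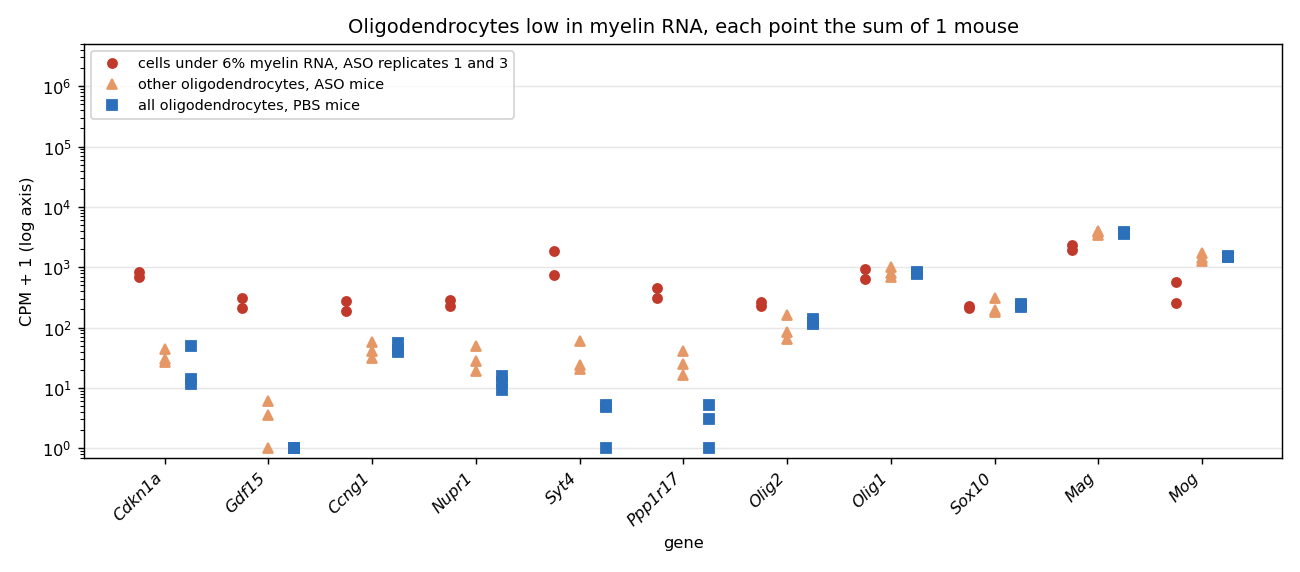
Level (CPM + 1, log axis) of 11 genes in oligodendrocytes under 6% myelin RNA of ASO replicates 1 and 3, in the other oligodendrocytes of the 3 ASO mice and in all oligodendrocytes of the 3 PBS mice. Each point is the sum over the cells of 1 mouse, and ASO replicate 2 is left out of the first group because it has 6 such cells. Cdkn1a, Gdf15, Ccng1 and Olig2 are higher in the low cells than in either other group, Olig1 and Sox10 overlap with them, and Mog is lower.

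The plot of low cells against the others shows the separation for Cdkn1a, Gdf15 and the lineage regulator Olig2 and the overlap for the lineage regulators Olig1 and Sox10.

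The comparison of ASO with PBS mice was made on the counts of each mouse's oligodendrocytes summed, with 7141 genes tested. By edgeR's quasi-likelihood test 17 genes passed an adjusted p of 0.05, which is 0.238% of those tested. Of these, 11 rose (0.154%) and 6 fell (0.084%) in ASO mice. An unadjusted p under 0.05 was reached by 471 genes (6.6%), 236 higher (3.3%) and 235 lower (3.29%). The mice of the 2 groups did not overlap for any of the 17 genes, nor for 849 of all genes tested (11.9%). Mylip itself could not be tested in these cells, with 1, 0 and 1 UMIs in ASO mice and 4, 3 and 1 UMIs in PBS mice.

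The 11 genes that rose differ in known function. Cntn1, a contactin through which glia and axons adhere (chr15:92051165-92341967 of GRCm38, plus strand), was at 150, 165 and 168 CPM in ASO mice, against 36.1, 35.2 and 37.6 CPM in PBS mice. It was 4.28-fold higher (log2 fold change 2.10, standard error (SE) 0.214, edgeR adjusted p = 1.9e-06). It was seen in 13.2%, 13.3% and 14.1% of oligodendrocytes of ASO mice and in 3.96%, 3.55% and 3.96% of those of PBS mice, so all 3 ASO mice were alike. In endothelial cells the share was 2.27%. Marcks, which links protein kinase C to the actin cortex (chr10:37133375-37138920, minus strand), was at 86.2, 49.5 and 80.6 CPM in ASO mice, against 7.61, 4.15 and 10.5 CPM in PBS mice. Its log2 fold change was 3.22, with an SE of 0.375 and an edgeR adjusted p of 1.42e-05. The 3 ASO mice all lay above the 3 PBS mice. Marcks passed the filter on low counts only through the ASO mice, however, so it could only be called higher. In precursors the means were 1226 CPM for Cntn1 and 1884 CPM for Marcks, above the oligodendrocytes of every mouse.

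Syt4, a synaptotagmin of secretory vesicles, was at 171, 21.2 and 119 CPM in ASO mice, against 3.802, 0 and 4.18 CPM in PBS mice. ASO replicate 2 was far below the other ASO mice and still above each PBS mouse. Ppp1r17, a phosphatase inhibitor known from Purkinje cells, was at 41.9, 40.7 and 71.6 CPM in ASO mice, against 0, 2.07 and 4.18 CPM in PBS mice. Mgst1, a membrane glutathione transferase, was at 26.3, 33.6 and 29.1 CPM in ASO mice, against 1.90, 4.15 and 2.09 CPM in PBS mice. The fitted log2 fold changes of Syt4 (5.16), Ppp1r17 (4.44) and Mgst1 (3.31) rest on at most 4 UMIs over the 3 PBS mice for each gene. These genes passed the filter on low counts only through the ASO mice, so they could only be called higher. Their means in precursors were 69.5 CPM for Syt4, 0.987 CPM for Ppp1r17 and 5.29 CPM for Mgst1.

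The other genes that rose had more UMIs in PBS mice. Neat1, a noncoding RNA that builds nuclear paraspeckles, was at 2907, 2310 and 2711 CPM in ASO mice, against 1607, 1310 and 1621 CPM in PBS mice (log2 change 0.77 with SE 0.156, edgeR adjusted p = 0.0261). Gria2, a subunit of AMPA receptors, was at 67.0, 95.5 and 85.1 CPM in ASO mice, against 34.2, 37.3 and 31.3 CPM in PBS mice (log2 fold change 1.21). Kank1, an adaptor at the cell cortex, had a log2 fold change of 1.51 and Cela1, a protease of the elastase family, of 1.37. Rnase4, a secreted ribonuclease whose locus overlaps that of Ang, had 1.80, and Scd3, a fatty acid desaturase, had 0.80. The last 4 had edgeR adjusted p values of 0.0363, 0.0363, 0.0406 and 0.0491. In PBS mice Kank1 was at 17.1, 14.5 and 18.8 CPM and Rnase4 at 9.51, 10.4 and 12.5 CPM. Both passed the filter on low counts only through the ASO mice, so they too could only be called higher. Scd3 has close copies in Scd1 and Scd2, and how the counts were split between them is not known. Means in precursors were 1281 CPM for Gria2 and 320 CPM for Kank1. They were 73.5 CPM for Neat1, 19.9 CPM for Cela1, 5.78 CPM for Rnase4 and 6.13 CPM for Scd3.

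**Figure D4:**
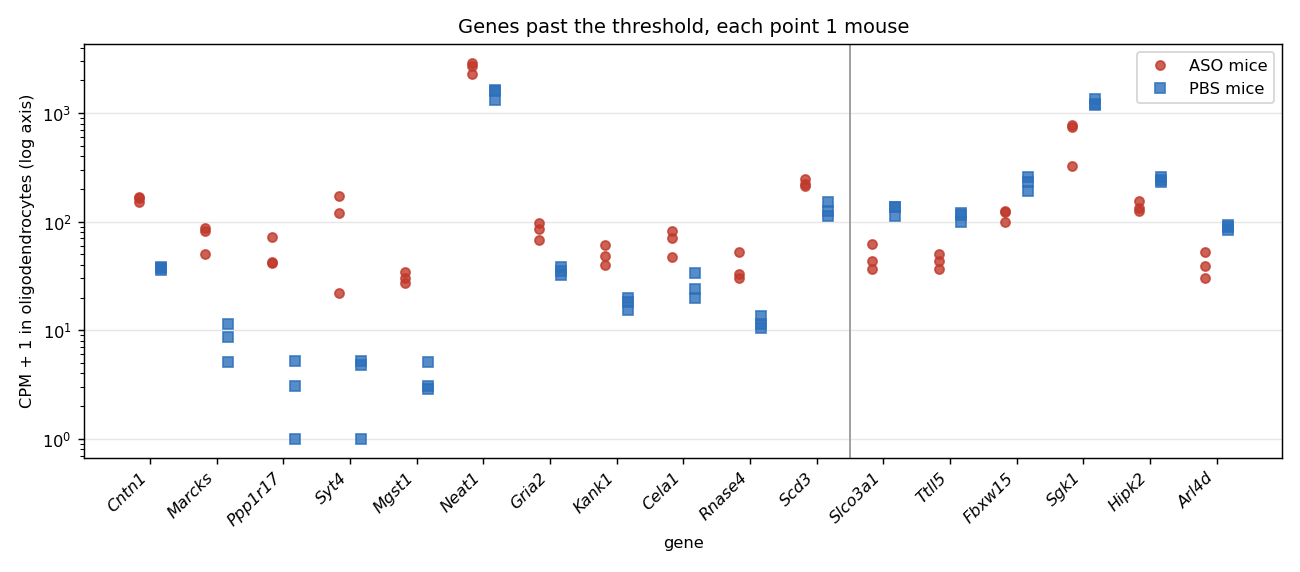
Level (CPM + 1, log axis) of the 17 genes past the threshold in oligodendrocytes, with 1 point for each of the 3 ASO mice and, to their right, each of the 3 PBS mice. The 11 genes left of the vertical line are higher in ASO mice and the 6 right of it are lower, and Syt4 has the widest spread among ASO mice, at 21.2 to 171 CPM.

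The plot of the 17 genes shows that for Cntn1 the ASO mice lay close together, while for Sgk1 and Syt4 1 ASO mouse stood apart. Among the 6 that fell, Slco3a1, an organic anion transporter (chr7:74275419-74554780, minus strand), was at 61.0, 35.4 and 42.5 CPM in ASO mice, against 135, 137 and 111 CPM in PBS mice (log2 change -1.45 with SE 0.226, edgeR adjusted p = 0.00112). Ttll5, a tubulin polyglutamylase, was at 49.1, 42.5 and 35.8 CPM in ASO mice, against 114, 97.4 and 119 CPM in PBS mice (log2 fold change -1.38). Sgk1, a kinase that glucocorticoids induce (chr10:21882184-21999903, plus strand), was at 327, 737 and 772 CPM in ASO mice, against 1359, 1198 and 1205 CPM in PBS mice (log2 change -1.08 with SE 0.208, edgeR adjusted p = 0.0151). ASO replicate 1 was lowest in it, with Sgk1 in 24.9% of its cells, against 50.5% and 51.0% in the other ASO mice and 65.4% to 69.9% in PBS mice. Endothelial cells had 17.9%. Hipk2, a kinase that acts on p53, had a log2 fold change of -0.84, and Arl4d, a small GTPase, of -1.17. Fbxw15, a member of an F-box family with many copies whose counts may be shared, had -1.004.

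Promoter windows of the called genes were searched for binding motifs of CREB, AP-1 and ATF4, transcription factors that act in stress responses. Sgk1 and Arl4d, which fell, stand in the list of glucocorticoid response genes, and no motif of the glucocorticoid receptor was searched. RefSeq windows of 300 bases (250 before and 50 after a start) were found for 12 of the 17 genes, 22 windows in all, on GRCm38.p6. Marcks, Syt4, Ppp1r17, Neat1 and Slco3a1 had no window, so the search does not cover them. The motif of CREB, TGACGTCA on either strand, was in the window of 1 gene, Arl4d, and in 1.79% of all 32851 windows. The motif of AP-1, TGANTCA, was in 0 of the 22 windows and in 7.81% of all. The motif of ATF4, TGATGCAA, was in 0 of the 22 and in 0.895% of all. The window of Arl4d (chr11:101665291-101665590, plus strand), with the match in capitals, is shown because it held the only match:
Arl4d: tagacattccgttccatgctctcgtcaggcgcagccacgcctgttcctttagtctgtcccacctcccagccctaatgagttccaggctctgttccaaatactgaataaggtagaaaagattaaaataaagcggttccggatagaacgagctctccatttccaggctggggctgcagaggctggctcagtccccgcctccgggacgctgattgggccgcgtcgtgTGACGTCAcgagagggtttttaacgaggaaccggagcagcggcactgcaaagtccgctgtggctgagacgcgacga
Letters in such a window are a description and no evidence of binding.

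Leaving out the cells under 6% myelin RNA, an alternative added after the data had been seen, kept 9 of the 17 calls. Cntn1 was then at a log2 fold change of 2.01, Marcks at 3.01 and Neat1 at 0.75, and Slco3a1 at -1.34 and Sgk1 at -1.03, each past the threshold. Syt4, Ppp1r17 and Rnase4 were no longer abundant enough to be tested. In the cells above the limit, Syt4 was at 58.8, 19.7 and 23.2 CPM in ASO mice, and Ppp1r17 at 24.3, 39.4 and 15.5 CPM. Both had been chosen as higher in ASO mice, so nothing is read from how these values compare with PBS mice. Cdkn1a, which missed the threshold among all oligodendrocytes at a log2 fold change of 1.72 (edgeR adjusted p = 0.0558), was at 0.45 (0.953) without those cells. Of the 10 genes that rose other than Neat1, at least 3 were seen together in 51, 22 and 27 oligodendrocytes of ASO mice and in 0 of PBS mice. These genes were chosen as higher in ASO mice, so the difference follows from that choice and nothing is read from it. The same held in 246 of 464 precursors of ASO mice and 273 of 481 of PBS mice, and in 61 of 1008 astrocytes of ASO mice and 49 of 869 of PBS mice. Of the 100 low cells in ASO mice, 31 were among these.

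Structural myelin genes were close between the groups. Of 26 genes of myelin proteins, 7 had a log2 fold change above 0 and 19 below 0, with a median of -0.09 and 0 past the threshold, where 3656 of all 7141 genes were above 0 (51.2%) and 3485 below (48.8%), with a median of 0.007. An unadjusted p under 0.05 was reached by 4 of the 26, all lower, where 235 of all 7141 genes (3.29%) were lower at that level. Hapln2 was at 275, 258 and 262 CPM in ASO mice, against 359, 363 and 384 CPM in PBS mice (log2 change -0.51 with SE 0.149, edgeR adjusted p = 0.224). Mbp was at 5204, 6622 and 5431 CPM in ASO mice, against 7101, 7838 and 6754 CPM in PBS mice (log2 fold change -0.37, edgeR adjusted p = 0.687). The groups did not overlap for either gene. That held for 4 of the 26 genes, and for 849 of all 7141 genes tested (11.9%).

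Enzymes that make myelin lipid and cholesterol gave 0 calls by edgeR. Of 17 tested enzymes of myelin lipids, 7 were above 0 and 10 below. An unadjusted p under 0.05 was reached by 3 of them, and by 6.6% of all genes tested. Fads1, a fatty acid desaturase, had the largest change of these, at 86.2, 95.5 and 69.4 CPM in ASO mice, against 51.3, 24.9 and 41.8 CPM in PBS mice (log2 fold change 1.05, edgeR adjusted p = 0.104). Its adjusted p lay between 0.0262, with no filter on low counts, and 0.917, without cells that held a marker of another type. Scd2, another desaturase, was at 5293, 5117 and 4162 CPM in ASO mice, against 4143, 3954 and 3790 CPM in PBS mice (log2 fold change 0.26, edgeR adjusted p = 0.867). Ugt8a, which makes galactosylceramide, was at 759, 670 and 723 CPM in ASO mice, against 877, 815 and 821 CPM in PBS mice (log2 fold change -0.26, edgeR adjusted p = 0.842). Of 16 tested genes of cholesterol synthesis, 7 were above 0 and 9 below, and 0 reached an unadjusted p under 0.05. Hmgcs1, an early enzyme of that pathway, was at 138, 168 and 132 CPM in ASO mice, against 175, 147 and 136 CPM in PBS mice. Of 21 tested targets of the sterol sensor LXR and genes of lipid transport, 13 were above 0 and 8 below. Abca1, which exports cholesterol, was at 51.5, 44.2 and 76.1 CPM in ASO mice, against 28.5, 37.3 and 18.8 CPM in PBS mice (log2 change 0.94 with SE 0.298, edgeR adjusted p = 0.284).

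Regulators and stage genes gave 0 calls as well. Of 14 transcription factors of the lineage, 5 were above 0 and 9 below, with 1 at an unadjusted p under 0.05 (6.6% of all genes tested). Myrf, the main driver of myelin genes, was at 235, 157 and 192 CPM in ASO mice, against 261, 184 and 190 CPM in PBS mice. Of 12 tested genes of committed and newly formed cells, 6 were above 0 and 6 below, and of 20 genes of mature subtypes 10 were above 0 and 10 below. Enpp6, a marker of newly formed cells, was at 170, 97.3 and 76.1 CPM in ASO mice, against 112, 118 and 71.0 CPM in PBS mice. Of the precursor list, 4 of 15 genes in the table were abundant enough to be tested.

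Stress-responsive lists had medians on opposite sides of 0. Of 19 tested genes of the immediate early response and of dissociation stress, 2 were above 0 and 17 below, with a median of -0.34. At an unadjusted p under 0.05, 8 were lower and 0 higher, against 3.29% and 3.3% of all genes tested. None passed the threshold. Nfkbia, an inhibitor of NF-kB, was at 95.8, 145 and 179 CPM in ASO mice, against 255, 236 and 169 CPM in PBS mice (log2 fold change -0.73, edgeR adjusted p = 0.197). Of 18 glucocorticoid response genes, 4 were above 0 and 14 below, with a median of -0.32. Sgk1 and Arl4d, 2 of the 18, fell past the threshold, as did 0.084% of all genes tested. By unadjusted edgeR p under 0.05, 6 were lower and 1 higher, against 3.29% and 3.3% of all genes tested. Ddit4, which restrains mTORC1, was at 107, 172 and 146 CPM in ASO mice, against 226, 228 and 224 CPM in PBS mice (log2 change -0.73 with SE 0.183, edgeR adjusted p = 0.113). Tsc22d3, another gene that glucocorticoids induce, was at 145, 203 and 163 CPM in ASO mice, against 177, 143 and 171 CPM in PBS mice, and these overlapped. Some genes stand in more than 1 of these lists.

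Of 14 tested p53 and integrated stress response genes, 11 were above 0 and 3 below, with a median of 0.33, and 0 passed the threshold. At an unadjusted p under 0.05, 3 were higher and 2 lower, against 3.3% and 3.29% of all genes tested. Without the cells under 6% myelin RNA the median was 0.15. Nupr1, a stress-induced chromatin protein, was at 34.7, 26.5 and 71.6 CPM in ASO mice, against 11.4, 14.5 and 8.36 CPM in PBS mice (log2 change 1.83 with SE 0.422, edgeR adjusted p = 0.0562). Nupr1 passed the filter on low counts only through the ASO mice, so it could only come out higher. Other members rare in PBS mice, Cdkn1a among them, also needed ASO mice to pass it. The counts of higher members and the median include these genes, which add no separate support.

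Of the genes described in oligodendrocytes near amyloid plaques, 15 of 22 were tested, 8 above 0 and 7 below. Sgk1 alone passed, where 0.238% of all genes tested did. Serpina3n, a protease inhibitor of that state, was at 129, 28.3 and 116 CPM in ASO mice, against 43.7, 29.0 and 18.8 CPM in PBS mice (log2 change 1.54 with SE 0.379, edgeR adjusted p = 0.104). ASO replicate 2 lay among the PBS mice. C4b, a complement component, was at 305, 124 and 206 CPM in ASO mice, against 221, 114 and 109 CPM in PBS mice (log2 fold change 0.50, edgeR adjusted p = 0.785). Of 5 tested genes of antigen presentation and interferon response, 2 were above 0 and 3 below. H2-D1 was at 63.4, 44.2 and 51.5 CPM in ASO mice, against 98.9, 68.4 and 94.0 CPM in PBS mice (log2 fold change -0.73, edgeR adjusted p = 0.298).

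Other functions of oligodendrocytes gave few calls. Of 12 tested iron genes, 4 were above 0 and 8 below, and Fth1 was at 12590, 16200 and 11800 CPM in ASO mice, against 13030, 17140 and 13770 CPM in PBS mice. Of 19 tested genes of energy supply and lactate, 9 were above 0 and 10 below. Of 17 tested ion channels and neurotransmitter receptors, 8 were above 0 and 9 below, and Gria2 alone passed, where 0.238% of all genes tested did. Grm7, a metabotropic glutamate receptor, was at 123.3, 110 and 121 CPM in ASO mice, against 192, 155 and 232 CPM in PBS mice (log2 change -0.74 with SE 0.184, edgeR adjusted p = 0.104). Of 17 tested genes of amyloid precursor processing, 8 were above 0 and 9 below, and App was at 4360, 5035 and 4034 CPM in ASO mice, against 4485, 4622 and 4786 CPM in PBS mice. Reads of the transgenes were not told apart from those of the mouse genes here. Of 6 tested nuclear noncoding RNAs, 4 were above 0 and 2 below. Malat1, a noncoding RNA of nuclear speckles, was at 14730, 9977 and 13550 CPM in ASO mice, against 21770, 14950 and 17800 CPM in PBS mice (log2 fold change -0.55, edgeR adjusted p = 0.368), while Neat1 rose.

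RNA of other cells was present at low levels beside these results. Astrocyte markers summed to 596, 893 and 757 CPM in the oligodendrocytes of ASO mice and 660, 721 and 800 CPM in those of PBS mice. Microglia markers summed to 107, 76.1 and 76.1 CPM in ASO mice and 118, 64.3 and 96.1 CPM in PBS mice, and macrophage markers to 21.5, 23.0 and 13.4 CPM in ASO mice and 13.3, 6.22 and 8.36 CPM in PBS mice, with Pf4 and Cbr2 at 0. Endothelial markers summed to 259, 232 and 354 CPM in ASO mice and 232, 230 and 217 CPM in PBS mice, and mural markers to 91.0, 37.1 and 80.6 CPM in ASO mice and 53.2, 47.7 and 56.4 CPM in PBS mice. Neuron markers summed to 323.2, 386 and 320 CPM in ASO mice and 272, 354 and 349 CPM in PBS mice, and fibroblast markers to 20.3, 37.1 and 33.6 CPM in ASO mice and 17.1, 31.1 and 10.5 CPM in PBS mice. Choroid plexus and ependymal markers, Ttr among them, summed to 6267, 4542 and 8753 CPM in ASO mice and 5955, 8350 and 2881 CPM in PBS mice. Hbb-bs, a haemoglobin gene of red blood cells, was at 77.8, 706 and 71.6 CPM in ASO mice and 58.9, 58.0 and 79.4 CPM in PBS mice, so ASO replicate 2 stood apart in it. Their part in the results was not tested beyond a fit without cells that held a marker of another type. There 3660 genes were tested, and 5 of the 17 calls held: Cntn1, Neat1, Slco3a1, Fbxw15 and Sgk1. Marcks, Syt4 and Ppp1r17 were not abundant enough to be tested there.

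Whether the ASO effect in oligodendrocytes differed from that in all other cells summed was tested by an interaction term in edgeR, with the mouse as a block. Of 12965 genes, 25 passed (0.193%), of which 17 had the higher effect in oligodendrocytes and 8 the lower. Of the 25, 10 were among the 17 called in oligodendrocytes. The ASO effect on Cntn1 was 2.10 in oligodendrocytes and -0.12 in other cells, and that on Marcks was 3.22 and -0.19. For Sgk1 the effect was -1.08 in oligodendrocytes and -0.04 in other cells. Neat1 did not pass, at 0.77 in oligodendrocytes and 0.26 in other cells (difference 0.50, SE 0.155, edgeR adjusted p = 0.228). For Mobp and Ptgds the difference came with the other cells, where their log2 fold changes were 0.71 and 1.16, while in oligodendrocytes they were -0.07 and 0.09. The makeup of the other cells by class was not adjusted for.

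**Figure D5:**
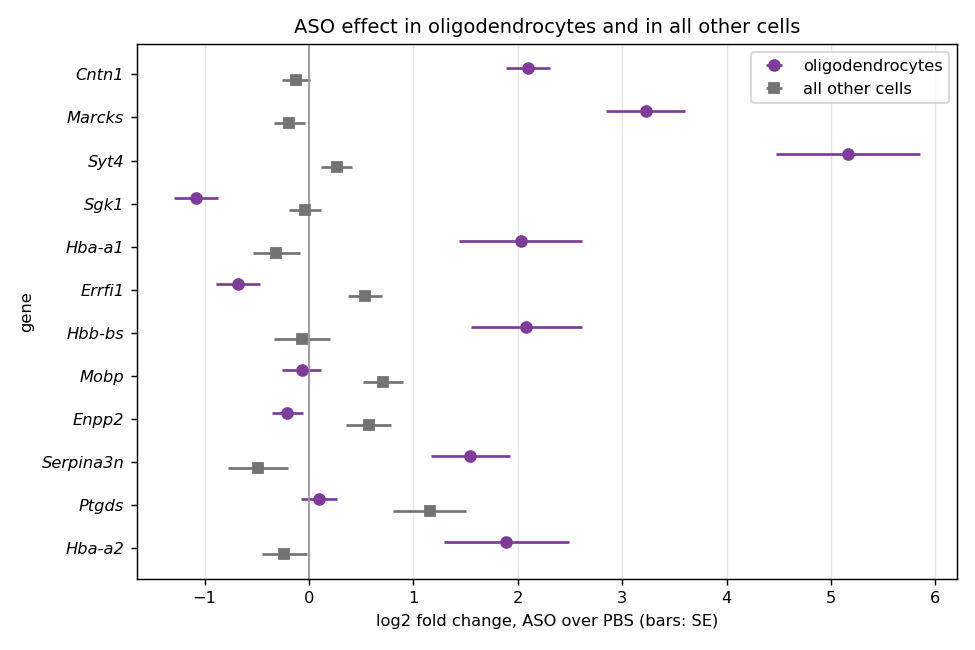
Log2 fold change, ASO over PBS, in oligodendrocytes (circles) and in all other cells summed (squares) for the 12 genes with the lowest p in the interaction test, with bars for the SE. Cntn1, Marcks and Syt4 lie far right of 0 in oligodendrocytes and near 0 in other cells, and Mobp, Enpp2 and Ptgds are displaced in the other cells.

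In the plot of effects by cells, Errfi1, an inhibitor of epidermal growth factor receptors, pointed down in oligodendrocytes (-0.68) and up in other cells (0.54).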

How the data were processed

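RNA of single hippocampal cells was measured by Drop-Seq in 3 ASO and 3 PBS mice. The authors deposited raw UMI counts of 28324 genes in each cell, and each column name gives the mouse and a cell class. The submitters' processing notes name bcl2fastq, the aligner STAR 2.5.0c and the builds mm10 and GRCm38, while the counting program is not given in the sources used here. Cells had 569 to 1999 UMIs, at least 501 genes and at most 15.0% mitochondrially encoded UMIs. Doublets were called per mouse with Scrublet in scanpy 1.11.5, and 207 cells (1.61%) were left out.

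Counts were summed per mouse over oligodendrocytes and tested with edgeR 4.0.16, run in R 4.3.3 (quasi-likelihood test, filterByExpr, TMM, two-sided, Benjamini-Hochberg over all genes tested, threshold 0.05). The test across genes was checked on simulated data. CPM are counts per 1000000 of all UMIs of a mouse's oligodendrocytes, log2 fold changes are ASO over PBS, and p-values measure the spread between 3 mice per group. The labels do not pair the mice, and replicate numbers follow sample order. Alternatives were DESeq2 1.42.0, its size factors, limma voom (limma 3.58.1), a robust fit, no filter on low counts, a replicate block, doublets kept, a mitochondrial limit of 10%, cells with at least 2 of the 5 markers, cells without markers of other types or precursor transcripts, equal totals and each mouse left out in turn.

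Genes were drawn from sets fixed by rule: the 5 markers, all called genes, and called and up to 4 abundant members of each list. Further sets were the 15 most abundant genes, the 15 most restricted genes and the 10 nearest the threshold. Up to 12 genes from the interaction test, and Mylip, Ttr and Hbb-bs, were added. Not every member of these sets is described. Members of the list results named beyond these (Abca1, Myrf, Sox10, Nfkbia, Tsc22d3, Grm7 and C4b), genes of the low-myelin cells and pairs of genes seen together were chosen after their values had been seen. The cells and the lists were chosen with earlier results of these data known. Thinning drew 500 UMIs per cell. Positions are from GENCODE annotation of GRCm38. Not every gene of the table is reported here. Among the genes nearest the threshold, Bfsp2 and S100a6 (higher in ASO mice) were not described above. The same holds for Kirrel3, Acap2, Phlpp1 and Nkain2 (lower in ASO mice).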

Additional observations from a re-analysis of the deposited data

Results flagged for a closer look

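For 25 of 12965 genes the ASO effect in oligodendrocytes differed from that in all other cells summed, by an interaction test in edgeR, and the 12 with the lowest p are given. The values are differences in log2 fold change, oligodendrocytes minus other cells. The difference was 2.21 for Cntn1, 3.41 for Marcks and 4.88 for Syt4, all 3 of which rose in oligodendrocytes. It was 2.01 for Serpina3n, which did not pass in oligodendrocytes alone. It was -1.13 for Sgk1, which fell in oligodendrocytes, and -1.25 for Errfi1. It was -0.84 for Mobp, -0.86 for Enpp2 and -1.19 for Ptgds, with log2 fold changes of 0.71, 0.57 and 1.16 in the other cells. Enpp2 had 2704 CPM in oligodendrocytes and 23260 CPM in choroid plexus cells. Ptgds had 7339 CPM in oligodendrocytes and 27630 CPM in fibroblast-like cells. Both of those classes are among the other cells, whose makeup by class was not adjusted for. For haemoglobin genes it was 2.08 for Hba-a1, 1.67 for Hbb-bs and 1.85 for Hba-a2, and ASO replicate 2 was the 1 mouse in which oligodendrocytes were high in them.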

How the results depend on the processing

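The main counts were 11 genes higher and 6 lower in ASO mice. With no filter on low counts they were 27 and 14, and without cells that held a marker of another type 4 and 3. The higher count was 5 with DESeq2, 6 with limma voom, 7 without cells that held a precursor transcript and 5 without cells low in myelin RNA. The lower count was 15 with a replicate block, in which the numbers follow sample order and pair no mice by label. With each mouse left out in turn, the higher count ran from 4 to 20 (lowest without PBS replicate 3, highest without ASO replicate 2), the lower count from 2 to 12 (lowest without PBS replicate 3, highest without ASO replicate 1) and the count of genes that differed between oligodendrocytes and other cells from 13 to 39, against 25.

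Cntn1 and Slco3a1 passed in all 19 alternatives, Marcks in all 18 and Ppp1r17 in all 17 that gave a value. In the rest Marcks and Ppp1r17 were too rare to be tested. Both pass the filter on low counts only through the ASO mice, so their passes add no separate support. Syt4 missed with the robust edgeR fit (adjusted p = 0.569), over a range of 1.41e-29 to 0.569 in its 16 alternatives. Scd3 passed in 6 of 19, Gria2 in 8, Arl4d in 9, Hipk2 in 13, and Ttll5 and Fbxw15 in 18. Kank1 passed in 11 of 18, Cela1 in 10 of 18, Mgst1 in 16 of 18 and Rnase4 in 10 of 17. As with Marcks, passes of Syt4, Mgst1, Kank1 and Rnase4 add no separate support. Neat1 passed in 16 of 19 and missed without PBS replicate 1, 2 or 3 (edgeR adjusted p up to 0.203). Sgk1 passed in 16 of 19, with adjusted p values of 7.97e-08 to 0.817. It missed with DESeq2, with the robust edgeR fit and without PBS replicate 3. The log2 fold change of Mog ran from -0.3161 to 0.000496 over its 19 alternatives, above 0 only without ASO replicate 3. That of Mobp ran from -0.3003 to 0.1347, above 0 without ASO replicate 1 and without PBS replicate 2 (0.04505), and was 0.001684 without cells low in myelin RNA. The causes were not tested. The summed counts limit what can be seen of rare transcripts: 1 UMI is worth 1.20 to 2.24 CPM in ASO mice and 1.90 to 2.09 CPM in PBS mice.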
